A study of Mus musculus with 7 samples.

Results

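The sodium pump genes described here are the 5 rows of the count table named Atp1b1, Atp1b2, Atp1b3, Fxyd1 and Fxyd5, chosen by symbol out of 23337 genes. They encode 3 beta subunits of the sodium-potassium ATPase and 2 FXYD proteins that regulate it. RNA was sequenced from cardiomyocytes of mice at postnatal day 30 (P30, 3 libraries, P30a to P30c) and at postnatal day 6 (P6, 4 libraries, P6a to P6d). Every mouse carried Rosa-Tom or Rosa-Cas9, without a statement of which allele each one had, and every mouse received AAV9-cTNT-Cre on postnatal day 1, a virus in which the cardiac troponin T promoter drives Cre. Hearts were perfused with collagenase and the cells were sorted by fluorescence, and polyA RNA was sequenced. The time since the virus was longer at P30 than at P6 and cannot be told apart from age. No label ties a library to an animal of its own. The p-values therefore cover only how far these libraries scatter, which could be technical scatter.

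The sodium pump moves sodium out of the cell and potassium in, at the cost of ATP, and keeps up the gradients on which the action potential and sodium-calcium exchange depend. A catalytic alpha subunit binds the ions and ATP and is the target of cardiac glycosides, while a glycosylated beta subunit is needed for the alpha subunit to fold and reach the surface. FXYD proteins are small single-span membrane proteins that bind the complex and change its ion affinity or rate. Phospholemman, the product of Fxyd1, is the main one in heart muscle, where it inhibits the pump until protein kinase A or C phosphorylates it.

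Library totals ran from 15555469 to 19368717 counts at P30 and from 10594932 to 51427646 counts at P6, and a level of 3 counts was 0.167 to 0.210 CPM (counts per 1e+06 TMM-scaled library counts) at P30 and 0.0553 to 0.271 CPM at P6. The 6 cardiomyocyte markers summed to 86071 to 87662 CPM at P30 and 53620 to 64964 CPM at P6. Myh6 made up most of this sum, with 54701 to 58678 CPM at P30 and 26977 to 40316 CPM at P6. Myh6, Tnni3, Ttn and Ryr2 rose, with log2 fold changes of 0.77, 0.41, 0.96 and 1.26. Tnnt2 and Actn2 did not rise, at -0.07 and -0.16. None of these 6 values was followed after removal of a trend with transcript length. Markers of other cells were present at lower sums: 225 to 448 CPM at P30 and 66.1 to 118 CPM at P6 for 6 endothelial genes, 137 to 312 and 158 to 391 CPM for 7 fibroblast genes, 952 to 1804 and 970 to 2182 CPM for 6 smooth muscle and pericyte genes, and 10.3 to 32.7 and 1.73 to 4.39 CPM for 5 leukocyte genes. Acta2 made up most of the smooth muscle and pericyte sum, with 806 to 1703 CPM at P30 and 915 to 2075 CPM at P6. Tagln in the same list had only 3.02 to 5.47 CPM at P30 and 2.80 to 6.95 CPM at P6. Myh11 had at most 17.2 CPM at P30 and 10.8 CPM at P6. The size of the sum and its course with age are thus mainly those of Acta2, and cannot be read as an amount of smooth muscle or pericyte RNA. Which cells the Acta2 RNA came from was not tested. In that list Pdgfrb, Rgs5 and Myh11 rose, with log2 fold changes of 1.53, 1.30 and 1.38. Acta2, Tagln and Cspg4 did not rise, at -0.30, -0.06 and -0.07.

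All 5 genes passed the filter on low counts and were tested among 12561 genes. Atp1b1 fell at P30, and the other beta subunits and both FXYD genes did not pass the test (quasi-likelihood test of edgeR; a call needed an adjusted p below 0.05). That is 1 of 5 called, with none higher, beside 54.1% of all tested genes called, 26.3% higher and 27.8% lower at P30. The levels of the ages did not overlap in 1 of the 5, beside 56.6% of all tested genes. The median log2 fold change of the 5 was -0.28 and ran from -0.72 to 0.60, beside -0.02 for all tested genes. Scaled to library totals and not by TMM, the median of all genes was -0.20, 2408 genes were higher and 4658 lower in place of 3307 and 3490, and 4 of the 5 were lower, Fxyd5 excepted. Relative to that median, the log2 fold changes with library totals were -0.40 for Atp1b1 and -0.71 for Atp1b2, and -0.17 for Atp1b3 and -0.26 for Fxyd1.

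**Figure D1:**
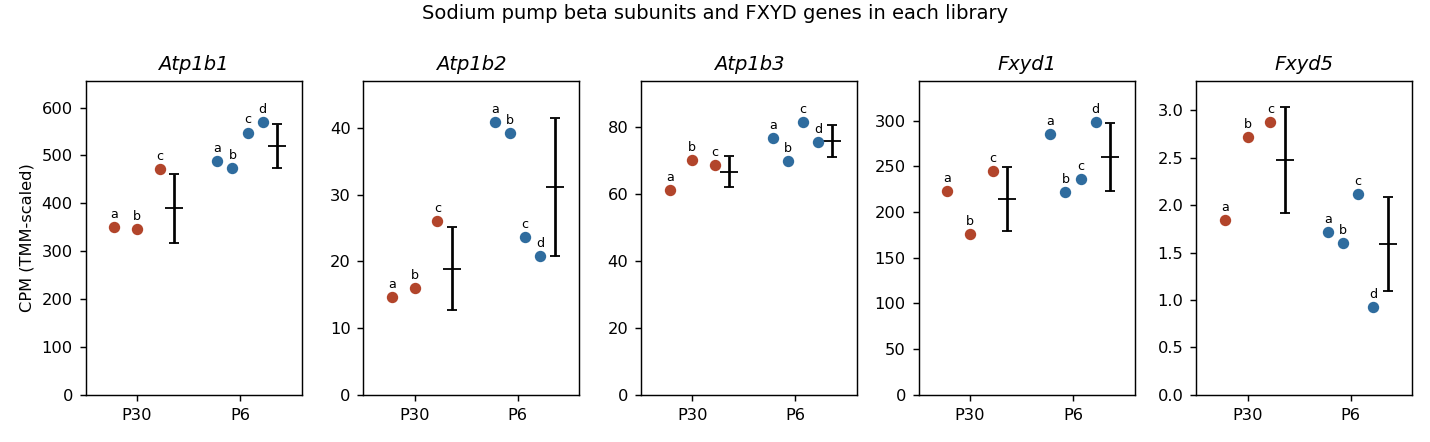
Levels of the 5 genes, in TMM-scaled CPM on axes that start at 0, with 1 point per library labelled by its letter, P30 left of P6, and the mean ± SD beside each age. Only the Atp1b1 points part the ages, with P30c at 473 CPM just under the lowest P6 library.

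The promoters of the most counted beta subunit and the most counted FXYD gene are shown because these pump transcripts stand first in their families in every library. Each is the 250 bases before the RefSeq start, on GRCm38.p6, with TATAAA or TATATA in capitals. Atp1b1 lies on the minus strand of chromosome 1 and its window spans 164458356 to 164458605. Fxyd1 lies on the minus strand of chromosome 7 and its window spans 31054854 to 31055103. In the annotation used for gene positions, Fxyd1 runs from 31051678 to 31057199, so its window lies within the gene. The Atp1b1 window begins next to its gene end at 164458355. The bases before the Fxyd1 gene end at 31057199 were not searched.
Atp1b1: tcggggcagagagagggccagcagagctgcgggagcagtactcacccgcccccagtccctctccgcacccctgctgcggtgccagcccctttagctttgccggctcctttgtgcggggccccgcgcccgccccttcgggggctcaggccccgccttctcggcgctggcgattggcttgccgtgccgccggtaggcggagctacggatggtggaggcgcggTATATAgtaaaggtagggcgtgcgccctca
Fxyd1: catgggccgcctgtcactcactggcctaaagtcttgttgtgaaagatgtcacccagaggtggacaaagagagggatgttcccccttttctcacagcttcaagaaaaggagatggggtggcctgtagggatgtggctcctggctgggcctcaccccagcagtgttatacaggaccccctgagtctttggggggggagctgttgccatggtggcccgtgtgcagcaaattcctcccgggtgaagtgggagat

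The windows differ in base composition: that of Atp1b1 holds 70.4% G and C and 24 CG dinucleotides, and that of Fxyd1 57.2% and 3, beside medians of 52.4% and 6 over 32851 mouse promoter windows of the same length. On either strand, the Atp1b1 window holds TATATA at -30 to -25 from the start, as 5.25% of all windows hold it somewhere, and CCAAT and 2 copies of GGGCGG, found in 33.8% and 32.7% of windows. The Fxyd1 window holds none of these, nor TATAAA (12.4% of windows) or CANNTG (66.2%). The search covered no more than these letters in these windows. Of the other genes, both RefSeq starts of Atp1b3 lie in windows of 73.6% and 76.8% G and C with 24 and 35 CG dinucleotides, and the Fxyd5 window has 55.6% and 3.

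Atp1b1 encodes the beta subunit that is the main one in heart. It had 351, 346 and 473 CPM in P30a, P30b and P30c, and 488, 473, 548 and 570 CPM in P6a to P6d. All P30 libraries lay below all P6 libraries, though P30c and P6b differ by less than 1 CPM. The mean was 390 ± 71.8 CPM (SD, n = 3) at P30 and 520 ± 46.5 CPM (SD, n = 4) at P6, and the log2 fold change was -0.42 ± 0.13 (SE; edgeR adjusted p = 0.0198). The call was lost without P30a (edgeR adjusted p = 0.0880) and without P30b (edgeR adjusted p = 0.0879), and the adjusted p ran from 0.00208 to 0.0880 over all 12 alternatives, of which DESeq2 was 1. The gene (chromosome 1, 164437109 to 164458355, minus strand, GRCm38) shares 575 exonic bases with Nme7 on the other strand, and the strand setting of the counts is not given in the sources used here. Nme7 had 86 to 151 counts per library at P30 and 260 to 1319 at P6, against 5350 to 6737 and 5397 to 29721 for Atp1b1.

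Atp1b2 encodes the beta subunit first known in mouse brain as an adhesion molecule on glia, and lies on chromosome 11 from 69599736 to 69605942 on the minus strand. It had 14.7, 16.0 and 26.1 CPM in P30a, P30b and P30c, and 40.9, 39.2, 23.7 and 20.8 CPM in P6a to P6d. The ages overlapped, because P30c lay above P6c and P6d, and P6a and P6b lay well above every other library. Its log2 fold change was -0.72 ± 0.29 (SE), the lowest of the 5, with an edgeR adjusted p of 0.0558 that missed the threshold. The edgeR adjusted p was 0.0176 without P30c, where the log2 fold change was -1.02, and the adjusted p ran from 0.0173 to 0.187 over the 12 alternatives, of which 6 passed. In the authors' deposited table, made with DESeq2, the log2 fold change was -0.70 and the adjusted p 0.0272. None of 4 markers of glia and nerve, the cells in which this gene is best known, passed the filter on low counts, and their sum was 0.561 to 0.969 CPM at P30 and 0.506 to 0.633 CPM at P6. Which cells the Atp1b2 RNA came from was not tested.

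Over the 7 libraries and 7822 well-counted genes, the gene whose log2 CPM most resembled that of Atp1b2 was Myh7, the beta-myosin heavy chain of fetal ventricle and slow muscle (Pearson r = 0.996), followed by Rnf5, a ubiquitin ligase (0.993). Myh7 had 148, 193 and 1194 CPM in P30a, P30b and P30c, and 4058, 4205, 829 and 590 CPM in P6a to P6d. Both genes thus set P6a and P6b above the rest, and both set P30c above P6c and P6d. The correlation describes the top of many genes over few libraries, which share their age and their depth across genes. The parting of P6a and P6b from P6c and P6d was not particular to this pair. Nedd4l, named here after its values were seen, had 86.8 and 85.0 CPM in P6a and P6b, against 51.5 and 49.0 CPM in P6c and P6d. Acta2 parted them the other way, with 915 and 919 against 2075 and 1916 CPM. How many genes part these libraries was not counted. Over all genes, the chi-square per gene was 12.5 between P6c and P6d and 19.8 between P6a and P6b. Across the parting it was 68.0 for P6b and P6c, 44.3 for P6b and P6d, and 33.0 for P6a and P6c. It was 19.5 for P6a and P6d. This measure also rises with depth, which differs between these libraries, and what parts them was not tested.

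**Figure D2:**
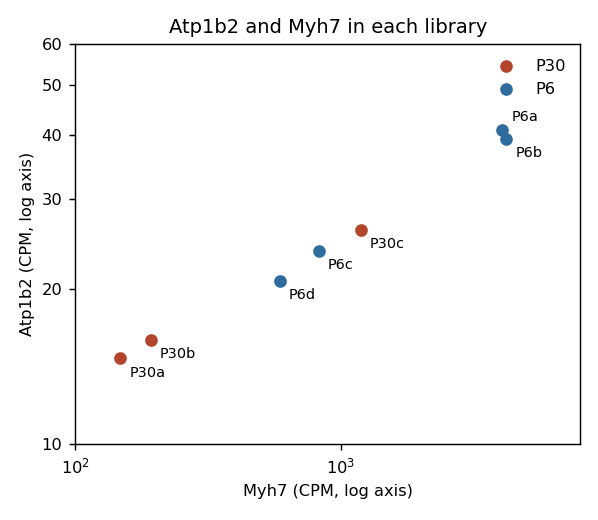
Atp1b2 against Myh7 in each of the 7 libraries, in TMM-scaled CPM on log axes, coloured by age. P30c, with 1194 CPM of Myh7 and 26.1 CPM of Atp1b2, lies among the P6 libraries, while P6a and P6b lie at the top.

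Atp1b3 encodes a widely expressed beta subunit, and lies on chromosome 9 from 96332655 to 96364442 on the minus strand. It had 61.3, 70.1 and 68.7 CPM in P30a, P30b and P30c, and 76.8, 69.9, 81.5 and 75.5 CPM in P6a to P6d. Its spread was small and P30b lay just above P6b. The log2 fold change was -0.19 ± 0.09 (SE), with an edgeR adjusted p of 0.115, 0.0073 with library totals, and 0.0073 to 0.356 over 12 alternatives.

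Fxyd1, the phospholemman gene, lies on chromosome 7 from 31051678 to 31057199 on the minus strand. It had 223, 176 and 244 CPM in P30a, P30b and P30c, and 285, 222, 236 and 298 CPM in P6a to P6d. P30a and P30c lay within the P6 range and P30b below it. The log2 fold change was -0.28 ± 0.14 (SE) and the edgeR adjusted p 0.120. This value turns round with the treatment of transcript length: after correction of every library for a trend with length it was 0.25, higher at P30, with an edgeR adjusted p of 0.0197. The longest annotated coding transcript of Fxyd1 has 620 bases, the shortest of the 5 genes, whereas the others have 1994 to 2998, and theirs kept their sign under the same correction. The correction used this length only, and was not run with the union of all annotated exons, 2186 bases for Fxyd1. With library totals the Fxyd1 log2 fold change was -0.46, lower at P30 (edgeR adjusted p = 0.0123).

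Fxyd5, or dysadherin, encodes an FXYD protein known from epithelia, where it alters adhesion as well as pump activity, and its gene lies near that of Fxyd1 on chromosome 7, from 31032722 to 31042481 on the minus strand. It was near the lower end of what could be counted, with 33, 42 and 41 counts in P30a, P30b and P30c, and 19, 48, 115 and 11 counts in P6a to P6d. Scaled to depth these were 1.84, 2.71 and 2.88 CPM at P30, and 1.72, 1.598, 2.12 and 0.928 CPM at P6. Only P6c lay within the P30 range, and the log2 fold change of 0.60 ± 0.33 (SE) did not pass the test (edgeR adjusted p = 0.156, and 0.106 to 0.346 over 12 alternatives). All 6 endothelial and all 5 leukocyte markers tested were higher at P30, with medians of 1.41 and 2.65 on the log2 scale, and their part in the Fxyd5 value was not tested. In bulk RNA, fewer cells of a type and less RNA per cell cannot be told apart.

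Divided by transcript length, levels could be set side by side between genes. On the scale of CPM per kb of the longest coding transcript, Fxyd1 averaged 346 ± 56.2 at P30 and 420 ± 59.995 at P6, Atp1b1 151 ± 27.8 and 201 ± 18.0, Atp1b3 33.5 ± 2.37 and 38.1 ± 2.41, Atp1b2 6.65 ± 2.20 and 10.96 ± 3.65, and Fxyd5 0.826 ± 0.186 and 0.531 ± 0.165 (SD, n = 3 and n = 4). These 5 stood in that order at both ages, with no overlap between neighbours within an age. The lead of Fxyd1 rests on its short transcript: divided by the union of all annotated exons, 2186 bases for Fxyd1, it averaged 98.1 CPM per kb at P30 and 119 at P6, against 126 and 169 for Atp1b1.

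None of the shares within the beta subunit pool passed the exact permutation test between the ages. Per length, Atp1b1 made up 78.8% ± 2.05 of beta subunit counts at P30 and 80.3% ± 2.21 at P6 (SD, n = 3 and n = 4; exact permutation test, two-sided, p = 0.429). Atp1b3 made up 17.7% ± 2.46 at P30 and 15.2% ± 0.741 at P6 (exact permutation p = 0.114), a difference of 2.51 percentage points that was 1.33 without P30b and 3.78 without P30c. Atp1b2 made up 3.42% ± 0.552 at P30 and 4.45% ± 1.73 at P6 (exact permutation p = 0.400). The Atp1b2 share was 5.94% in both P6a and P6b and between 2.75% and 4.05% in the other 5 libraries. Fxyd1 made up 99.8% ± 0.0734 of the sum of Fxyd1 and Fxyd5 at P30 and 99.9% ± 0.0508 at P6 (exact permutation p = 0.0857), and the log2 ratio of Fxyd1 to Atp1b1 was 1.20 ± 0.177 at P30 and 1.05 ± 0.190 at P6 (exact permutation p = 0.400). With 35 ways to split 7 libraries into 3 and 4, no p under 0.0286 can be reached. A total of 5 shares and ratios were tested, and after Benjamini-Hochberg adjustment over them the exact permutation p-values were 0.286 to 0.429.

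**Figure D3:**
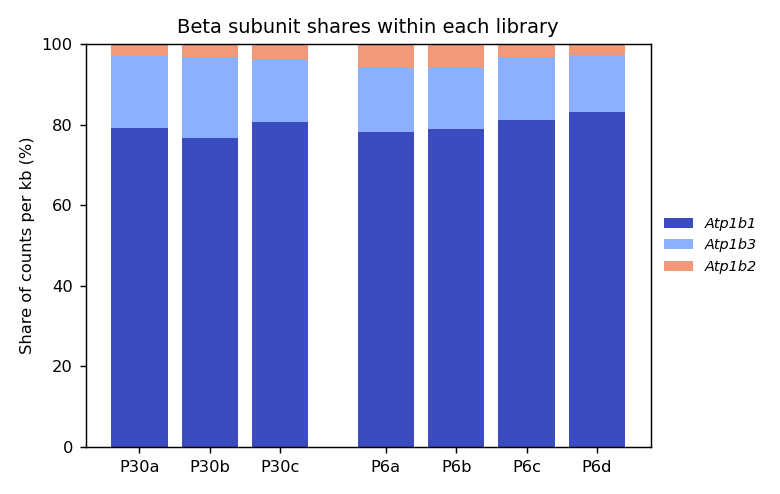
Shares of counts per kb of transcript in each library, in percent, for the 3 beta subunit genes, P30 libraries left of P6 libraries. The Atp1b1 share lies between 76.7% and 83.0% in all libraries, and the Atp1b2 share is largest in P6a and P6b, at 5.94% each.

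Summed per length, beta subunit transcripts stood at 172, 175 and 227 CPM per kb in P30a to P30c and at 242, 232, 262 and 266 CPM per kb in P6a to P6d. All P30 libraries lay below all P6 libraries, as they did for Atp1b1, which makes up most of the sum. The sum was described without a test.

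Other listed genes of the pump and FXYD families included Fxyd2 of kidney, with at most 5 counts per library, and Fxyd3, with none. Of those reported here, 3 had enough counts to test, and none passed the test. Fxyd6, an FXYD gene best known from brain, had 15.7, 26.3 and 10.8 CPM in P30a to P30c and 14.02, 12.4, 14.9 and 18.7 CPM in P6a to P6d, with a log2 fold change of 0.24 ± 0.27 (SE) that was -0.17 without P30b (edgeR adjusted p = 0.478 with all libraries). Nkain1, whose product is named for an interaction with the pump, had a log2 fold change of 0.13 ± 0.24 (SE; edgeR adjusted p = 0.680), and -0.053 with library totals. Per length, Fxyd6 at 9.83 ± 4.43 CPM per kb at P30 and 8.37 ± 1.48 at P6 overlapped with Atp1b2 at both ages. Fxyd7, another FXYD gene of brain, had 2 to 8 counts in the P30 libraries and 3 to 36 in the P6 libraries (log2 fold change -1.13 ± 0.58, edgeR adjusted p = 0.126).

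Of 12 tested genes of sodium entry, exchange and cotransport, 5 rose and none fell, beside the 26.3% and 27.8% of all genes, with a median log2 fold change of 0.31. The number that rose was 3 with library totals or without P30b, and the number that fell was 3 with library totals or with the length trend removed and 1 without P6c. Slc12a2, a cotransporter of sodium, potassium and chloride, rose to 27.3 ± 2.79 CPM at P30, against 19.7 ± 2.56 CPM at P6 (log2 fold change 0.46 ± 0.14, edgeR adjusted p = 0.0163). That call was lost with library totals (edgeR adjusted p = 0.133), with the length trend removed (edgeR adjusted p = 0.0676), without P30a (edgeR adjusted p = 0.0567) and without P30b (edgeR adjusted p = 0.0676). Scn4b, an accessory channel subunit, had 8.03, 10.7 and 3.51 CPM in P30a to P30c and 0.366 to 0.844 CPM in the P6 libraries, a log2 fold change of 3.59 ± 0.43 (SE; edgeR adjusted p = 0.000107). Slc8a1, the sodium-calcium exchanger that runs on the gradient the pump makes, is given here although chosen after its values were seen: its log2 fold change was -0.39 ± 0.20 and did not pass (edgeR adjusted p = 0.117), while it was -0.57 with library totals (edgeR adjusted p = 0.0270) and -0.86 with the length trend removed (edgeR adjusted p = 0.00602), both past the threshold.

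Of 12 tested kinase and phosphatase genes, which include those that act on phospholemman, 7 fell and 1 rose, beside 27.8% lower and 26.3% higher among all tested genes, with a median log2 fold change of -0.36. Prkar1a, a regulatory subunit of protein kinase A, fell to 881 ± 71.2 CPM at P30, against 1612 ± 91.6 CPM at P6 (log2 fold change -0.87 ± 0.09), and Prkar2a, another regulatory subunit, rose to 191 ± 10.6 CPM at P30, against 139 ± 9.86 CPM at P6 (log2 fold change 0.46 ± 0.09, and 0.27 with library totals). Ppp1r1a, inhibitor 1 of protein phosphatase 1, fell to 1.54 ± 0.170 CPM at P30, against 12.4 ± 1.86 CPM at P6, a log2 fold change of -2.99 ± 0.21 (edgeR adjusted p = 5.4e-06).

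Of 7 tested genes that anchor, move or modify the pump, 3 rose and 2 fell, beside 26.3% higher and 27.8% lower among all tested genes, with a median log2 fold change of 0.52. Ank2, ankyrin-B, which links the pump and the sodium-calcium exchanger to the membrane skeleton, rose to 244 ± 12.9 CPM at P30, against 150 ± 18.8 CPM at P6 (log2 fold change 0.70 ± 0.11, edgeR adjusted p = 0.000474), and its log2 fold change was 0.33 with the length trend removed. Cav3, muscle caveolin, was lower at P30 by a log2 fold change of -0.33 ± 0.11 (edgeR adjusted p = 0.0293), a call that was lost without P6a, P6d, P30a or P30b and with the length trend removed (edgeR adjusted p up to 0.376). Src, a tyrosine kinase reported to associate with the pump, had 0.893, 2.39 and 0.701 CPM in P30a to P30c and 2.66 to 4.39 CPM in the P6 libraries (log2 fold change -1.51 ± 0.42, edgeR adjusted p = 0.0133, lost without P30a at 0.0598).

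**Figure D4:**
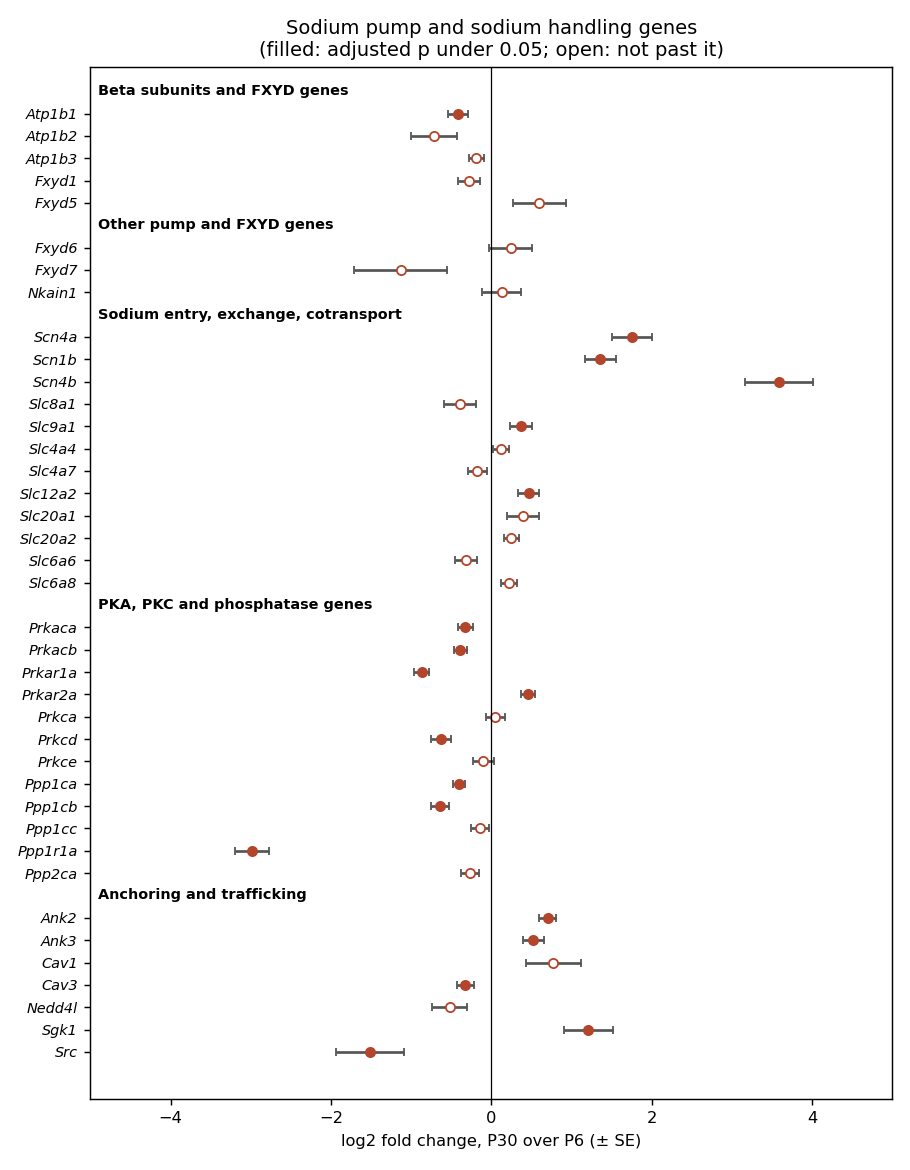
Log2 fold change of P30 over P6 with its SE for the 5 genes and the tested genes of the other lists, filled where the edgeR adjusted p was under 0.05. Of the beta subunit and FXYD genes only Atp1b1 is filled, at -0.42, while Scn4b stands at 3.59 and Ppp1r1a at -2.99.

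The genes whose log2 CPM over the 7 libraries was most like each of the other 4 members were Acot9 for Atp1b1 (Pearson r = 0.990), Nupl2 for Atp1b3 (0.969), Snrpd3 for Fxyd1 (0.985) and Mus81 for Fxyd5 (0.960). The next were Smarcb1 for Atp1b1 (0.979), Agpat3 for Atp1b3 (0.968), Ndufa13 for Fxyd1 (0.980) and Sars2 for Fxyd5 (0.948). These are descriptions over 7 libraries that share age, depth and scaling across genes.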

How the data were processed

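The authors deposited raw read counts per gene for 7 libraries and a DESeq2 comparison of the ages. Per the submitters' processing notes the tools were CASAVA 1.8, STAR 2.5.3a, featureCounts from Subread 1.5.2 and DESeq2, on mm10; the strand setting and the annotation used are unknown here. Per the labels, 10 ng of RNA went through 8 PCR cycles of SMART-Seq v4 and 500 pg of cDNA into Nextera XT. The labels' treatment text says day 14, while titles and ages say P6 or P30, which were used. The count columns carry letters that match no number in the titles, so they were grouped by age. Per the file headers, the authors' second table holds baseMean (a signal: the mean size-factor-scaled count), log2 fold changes with SE, the Wald score, p-values and adjusted p-values; its sign is P30 over P6.

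The quasi-likelihood fit of age, without covariates, used edgeR 4.0.16 (R 4.3.3) on genes kept by filterByExpr, with TMM factors, with Benjamini-Hochberg adjustment over 12561 genes and a threshold of 0.05. SE is the absolute log2 fold change divided by the root of the F statistic. The procedure was tested on simulated data in which a small part of the genes changed, as many up as down. That simulation does not test the scaling under a change as broad as the one called here. Depth limits Fxyd5 most. Lengths and positions came from GENCODE M21 (GRCm38), which matched 20953 of 23337 symbols, and promoters from RefSeq (GRCm38.p6), which matched 4 of 5 genes. The lowest chi-square per gene between libraries of an age was 12.3, so no count column was a copy of another. This cannot tell whether libraries came from different animals. Shares were compared by an exact permutation test over 35 splits. Alternatives were median-of-ratios factors, library totals, DESeq2 1.42.0, no filter on low counts, removal of a loess trend with transcript length, and leaving out each library. The 5 genes and all lists were chosen with earlier results of these data known. Other genes named by rule were pump genes with a mean of at least 1 CPM. In each other list they were the most counted called gene in each direction and the called gene with the largest change. Outside this rule Fxyd2, Fxyd3, Fxyd7, Slc8a1 and Nedd4l were also named, Slc8a1 and Nedd4l after their values were seen. Likeness was sought among genes with a mean of at least 10 CPM. Results for some genes of the lists are not reported here, and the list counts, marker sums and the naming rule leave those genes out.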

Additional observations from a re-analysis of the deposited data

Results flagged for a closer look

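Of 20 sets of values in the 4 P6 libraries that were checked for a library far from the others, 1 was flagged, and chance alone flags about 1 in 20. It was Prkar2a, a regulatory subunit of protein kinase A, with 124.5 CPM in P6d against 143, 144 and 145 CPM in P6a, P6b and P6c. The P30 libraries had 200, 179 and 195 CPM, all above every P6 library. Sets of 3 libraries were not checked.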

How the results depend on the processing

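Over all genes, the number of calls in each direction stayed within 1.5 times under each of the 12 alternatives. The number of the 5 genes that were lower at P30 was 1, and became 4 with library totals, 2 with the DESeq2 Wald test, 2 without a filter on low counts and 0 to 2 with 1 library left out. The number higher was 0, and 1 with the length trend removed, which was Fxyd1. Cell type markers were not followed over the alternatives. Of the other listed genes whose log2 fold changes are printed one by one, those that changed sign were Fxyd1, Fxyd6 and Nkain1. Fxyd1 was 0.25 with the length trend removed. Fxyd6 was -0.17 without P30b, and up to 0.49 with another library left out. Nkain1 was -0.053 with library totals. For Fxyd6 and Nkain1 the cause was not tested. Scn4b, Prkar2a, Prkar1a, Ppp1r1a and Ank2 kept their calls under all 12 alternatives, though the values of Prkar2a (0.27 with library totals) and Ank2 (0.33 with the length trend removed) moved by over 1.5 times. Shares kept their direction and their side of the threshold with raw counts and with union exon lengths. A change of length cannot reorder the libraries in the share of Fxyd1 in Fxyd1 and Fxyd5. It also cancels from the change in the log2 ratio of Fxyd1 to Atp1b1, so it is no check of these measures. With 1 library left out the exact test cannot pass, and no share changed sign: the difference P30 minus P6 was -2.43 (without P30c) to -0.40 (without P30b) percentage points for Atp1b1, -1.60 (without P6d) to -0.54 (without P6a or P6b) for Atp1b2, and 1.33 (without P30b) to 3.78 (without P30c) for Atp1b3. The log2 ratio of Fxyd1 to Atp1b1 differed by 0.042 (without P30a) to 0.22 (without P6a). No paired analysis was possible because the count columns carry letters that match no replicate number in the titles. Depth limits Fxyd5, with 11 counts in P6d.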
